A study of Mus musculus with 12 samples.

Results

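The expression of 10 genes of antioxidant defense and metal binding was measured in the RPE of WT and rd6 mice. They were taken by name from the 28591 genes of the table: the metallothioneins Mt1 and Mt2, the stress-induced enzymes Hmox1 and Nqo1, the glutathione synthesis subunits Gclc and Gclm, the thiol-repair enzymes Srxn1 and Txnrd1, the glutathione peroxidase Gpx3 and the glutathione S-transferase Gstm1. The series holds 12 RNA-seq libraries, 6 of WT mice (C57BL/6J) and 6 of mice with the rd6 genotype (Mfrp rd6/rd6), at the age of 1 mo. The rd6 mutation disrupts Mfrp, a gene for a membrane protein of the RPE. The mice were born with the mutation, so its effect on the RPE cannot be told apart from that of the degeneration that follows it. Nor can it be told apart from that of any difference in background between the stocks, as the sample titles name a strain for WT alone. The study's methods name the rd6 stock only as Mfrp rd6/J and state that both sexes were used unless noted, while the labels give no sex. The RPE was taken from eyecups freed of neural retina and anterior segment, and that of both eyes was pooled in each library. The labels name no treatment. The study calls the RNA-seq replicates independent, while the labels do not state that each library came from a separate animal. The p-values measure the spread between these samples.

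RPE cells work in bright light beside a dense vascular bed, and they engulf the oxidizable outer segments of photoreceptors, for which the tissue is known to lean on antioxidant enzymes. Many of these enzymes are targets of NRF2 (gene Nfe2l2), a transcription factor that KEAP1 holds back until electrophiles or oxidants modify it and that binds antioxidant response elements with small MAF proteins. BACH1 represses some of the same genes, Hmox1 above all, until heme displaces it. Metallothioneins are small cysteine-rich proteins that bind zinc and copper, and their genes are induced through the zinc-sensing factor MTF1 and by glucocorticoids.

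The libraries held between 28907262 and 33152725 reads counted on genes, at which depth 3 reads equaled 2.71 to 3.32 normalized counts. All 10 genes were far above that level in every library. The mutated gene, Mfrp, was lower in all rd6 libraries than in any WT library, with a log2 fold change of -0.63. Its reads in parts shared with overlapping genes are uncertain. Of 10 RPE markers, 9 were abundant and Best1 was at only 9.33 to 48.7 normalized counts. Their summed level ran from 1518560 to 2277260 in WT and from 1434760 to 1920520 in rd6, and 5 of them were lower in rd6 at limma q below 0.05. Other cell types were present too. Of 18 microglia and macrophage markers, 17 were higher in rd6, with a median log2 fold change of 2.74 and none at 0 in any library. Their sum ran from 16898 to 22539 in WT and from 29824 to 48033 in rd6, but most of it in WT was Csf1r (12921 to 18698), the one marker not called (16200 to 20851 in rd6). Endothelial markers were higher for 6 of 8, rod markers lower for 4 of 12 and melanocyte markers lower for 2 of 5. Of the Mueller glia markers 1 was higher and 1 lower of 8, of the mural markers 1 was higher of 5, and of the stromal markers 1 was lower of 7. None of the 5 red blood cell genes or the 4 ocular surface keratins was called. In such bulk samples, fewer cells of a type and less RNA per cell cannot be told apart.

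**Figure D1:**
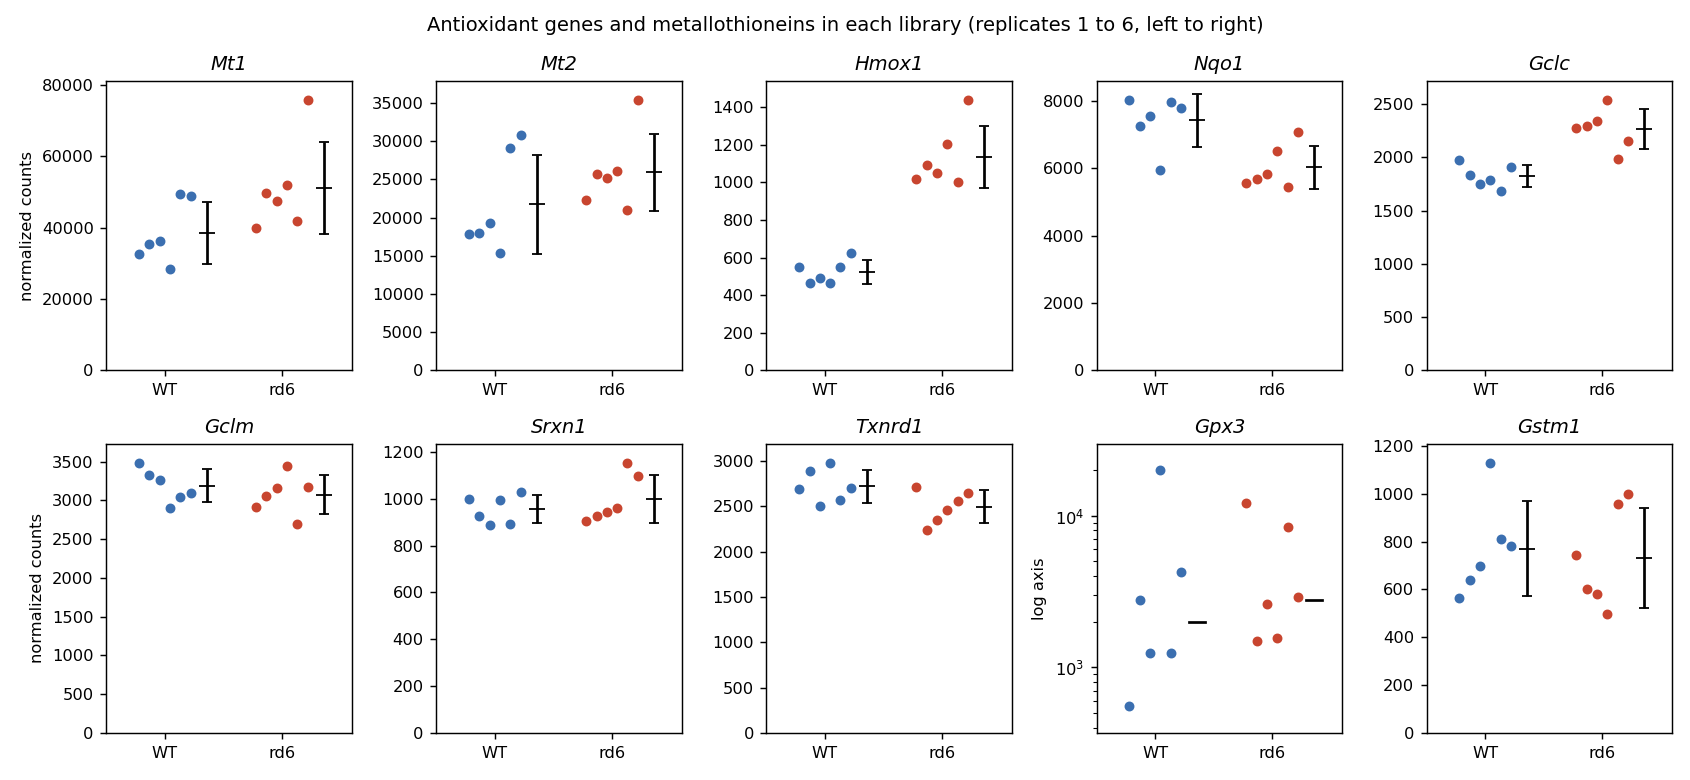
Normalized counts of each gene in the 6 WT (blue) and 6 rd6 (red) libraries, replicates 1 to 6 from left to right. Black marks give the mean and SD, except for Gpx3, on a log axis, where they give the median. For Hmox1 and Gclc the rd6 points lie above all WT points.

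Of the 10 genes, 3 differed between the genotypes at q below 0.05 (limma on log2(normalized counts + 1), Benjamini-Hochberg adjustment over 17768 genes). Hmox1 and Gclc were higher and Nqo1 was lower in rd6. Over all genes tested 11.4% were higher and 11.6% were lower at this limit, so the share of the 10 genes that passed in either direction was not far from the background. Hmox1 alone also passed the study's fold limit, a log2 change of 0.81, which 4.69% of all genes did upward and 2.12% downward. For 2 of the 10 genes the rd6 libraries all exceeded the highest WT library, a pattern seen in 5.77% of all genes, and for 0 they all lay under the lowest, against 5.67% of all genes. The values of the other 8 overlapped between the genotypes. The median log2 fold change of the 10 was 0.17, beside 0.0049 for all genes tested. The split of all calls between the directions depended on the scaling: 2024 genes were higher and 2062 lower in the main test (49.5% higher), against 2403 and 1572 (60.5% higher) with upper-quartile normalization in edgeR and 2743 and 1557 (63.8% higher) with limma-trend on CPM.

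**Figure D2:**
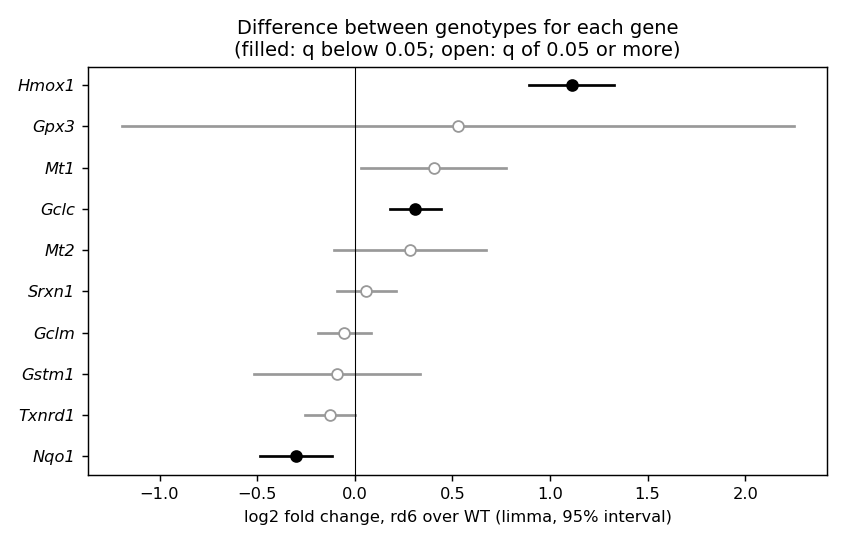
Log2 fold change of rd6 over WT (x axis) for each gene, with its 95% interval from limma. Filled points passed q below 0.05. Hmox1, at 1.11, stands apart at the top, Nqo1 at -0.30 lies at the bottom, and the interval of Gpx3 spans from -1.19 to 2.25.

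Scaled to exon length and to the counted reads of the library (RPKM), the metallothioneins were the most abundant of the 10 transcripts in the WT RPE. Mt2 stood at 1181 ± 316 and Mt1 at 989 ± 192 (SD, n = 6) on this scale, and their ranges overlapped. Nqo1 came next at 153 ± 11.7, and Gpx3 stood at a mean of 92.1 within a range of 9.79 to 377 that covered the whole range of Nqo1. The other 6 lay close together, from Gstm1 at 16.9 down to Hmox1 at 9.60, and each overlapped its neighbor in the order. In rd6 the level of Hmox1 was 21.6 ± 2.41 on the same scale, and its rank among the 10 moved from 10 to 5. Gclc, at 20.1 ± 1.495, overlapped it, whereas Gclm, at 16.3 ± 0.957, stayed below all values of Gclc in rd6. The exon length of Mt1 in the annotation, 1246 bases, equals the whole span of the gene, which lowers its per-length level against that of Mt2.

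Mt1 and Mt2 are neighbors on chromosome 8 of GRCm38 and are read from the same strand. Mt2 (ENSMUSG00000031762) runs from 94172664 to 94173568 and Mt1 (ENSMUSG00000031765) from 94179082 to 94180327 on the + strand, with 5513 bases between them. An antisense transcript overlaps Mt2, and Mt1 has no annotated overlap. Their promoter windows are shown because both genes are known targets of MTF1 and their levels are compared next. Each window covers 250 bases before to 50 bases after the annotated start (RefSeq, GRCm38.p6), chr8:94178839-94179138 for Mt1 and chr8:94172368-94172667 for Mt2, on the + strand. Capitals mark the core of the metal response element, TGCACNC or TGCGCNC, searched on both strands.
Mt1: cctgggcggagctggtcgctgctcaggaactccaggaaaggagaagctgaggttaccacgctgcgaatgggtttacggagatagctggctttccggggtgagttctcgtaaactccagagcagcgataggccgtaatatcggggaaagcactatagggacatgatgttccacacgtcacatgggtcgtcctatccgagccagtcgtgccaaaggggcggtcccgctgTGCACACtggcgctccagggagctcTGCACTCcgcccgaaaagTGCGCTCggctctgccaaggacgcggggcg
Mt2: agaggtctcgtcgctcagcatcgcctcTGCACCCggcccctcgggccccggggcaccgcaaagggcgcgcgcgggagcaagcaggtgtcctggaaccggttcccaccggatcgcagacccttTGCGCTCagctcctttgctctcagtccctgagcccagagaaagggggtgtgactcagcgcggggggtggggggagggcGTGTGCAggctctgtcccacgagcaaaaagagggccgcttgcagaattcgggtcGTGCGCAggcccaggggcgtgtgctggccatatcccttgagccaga
The core was found 3 times in the window of Mt1 and 4 times in that of Mt2. Of 32851 promoter windows of the same length, 25.7% held at least 1 such core and 1.97% held at least 3. The window of Gclm, shown further on, also held 3, that of Srxn1 and each of the windows of Gstm1 held 1, and those of Nqo1, Txnrd1 and Gpx3 held 0. The Mt2 window also held 1 antioxidant response element core, TGACNNNGC, within which lies an AP-1 site (TGAGTCA or TGACTCA). These are matches of letters, and no binding was measured.

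The metallothioneins had higher means in rd6, but neither passed the test. Mt1 ranged from 28367 to 49518 normalized counts in WT with a median of 35846.5, and from 39861 to 75815 in rd6 with a median of 48506. WT replicates 5 and 6 lay within the rd6 range, and rd6 replicate 6 stood above all other libraries. The fold change of Mt1 was 1.32 (95% interval 1.02 to 1.71, log2 fold change 0.40, SE 0.17, limma q = 0.111). It passed under limma-trend on CPM, which scales by total reads and refits the variances (log2 fold change 0.46, q = 0.0416), and under none of 23 other alternatives. Mt2 ranged from 15415 to 30774 in WT with a median of 18637, and from 21034 to 35399 in rd6 with a median of 25374. Here too WT replicates 5 and 6 were the high ones of their group, above 5 of the 6 rd6 libraries. The fold change of Mt2 was 1.22 (95% interval 0.930 to 1.59, limma q = 0.285).

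The pair kept a similar ratio from library to library. The ratio of Mt2 to Mt1 counts was 0.558 ± 0.0442 in WT and 0.513 ± 0.0307 in rd6 (SD, n = 6 each), and the ranges overlapped. The log2 difference of -0.12 did not pass an exact permutation test over the libraries (two-sided p = 0.0649, also 0.0649 after adjustment over the 2 ratios tested). Leaving out WT replicate 2 or rd6 replicate 1 brought the adjusted exact p to 0.026 and 0.0195. The third metallothionein of the table, Mt3, first known from the brain, differed in direction. It ranged from 6219 to 10596 normalized counts in WT and from 4206 to 7110 in rd6, and it fell by 0.67 on the log2 scale (SE 0.14, limma q = 0.004). Its ranges met only through WT replicate 4 and rd6 replicate 6.

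Among 9 tested genes of other metallothioneins and zinc handling, 2 were higher and 2 were lower in rd6. The zinc importers Slc39a14 (log2 fold change 0.58, limma q = 0.000161) and Slc39a1 (0.28, limma q = 0.000559) rose, and every rd6 library of both exceeded every WT library. Besides Mt3, the zinc exporter Slc30a5 fell by 0.28 on the log2 scale (limma q = 0.0269), but without WT replicate 1, WT replicate 2, rd6 replicate 1 or rd6 replicate 2 its q was 0.0501 to 0.0607, and with upper-quartile normalization in edgeR 0.0558. The metal-sensing factor Mtf1 stood at 840 ± 67.2 normalized counts in WT and 822 ± 60.4 in rd6 (SD, n = 6 each, limma q = 0.783), and the sign of its difference turned under other scalings. Of 12 glucocorticoid-responsive genes, 0 were higher and 2 were lower, Klf9 (log2 fold change -0.42, limma q = 0.0192), a transcription factor, and Sgk1 (-0.39, limma q = 0.0157), a kinase. Without rd6 replicate 1, 1 gene was higher, Ddit4 (limma q = 0.0359). Klf9 had q = 0.0521 without the 3 libraries high in the keratin Krt5.

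Hmox1 showed the largest difference among the 10 genes. It encodes heme oxygenase 1, which opens the heme ring to biliverdin, iron and carbon monoxide, and it lies on chromosome 8 from 75093621 to 75100589 on the + strand (ENSMUSG00000005413, no annotated overlap). It ranged from 462 to 625 normalized counts in WT with a median of 519, and from 1003 to 1439 in rd6 with a median of 1072. The groups were well apart, with the lowest rd6 library above the highest WT library, and rd6 replicate 6 was the highest. The fold change was 2.16 (95% interval 1.86 to 2.51, log2 fold change 1.11, SE 0.10, limma q = 6.52e-06). Over 24 alternatives its log2 fold change stayed between 1.04 and 1.16. Hmox1 is also made by macrophages and in the breakdown of red blood cells. The markers of microglia and macrophages differed in the same direction, by a median log2 fold change of 2.74, and their sums did not overlap between the groups. The 5 red blood cell genes summed to 7220 to 50729 in WT and 15155 to 31708 in rd6, the highest in WT replicate 1. The part of either cell type in the rise of Hmox1 was not tested.

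Of the 6 other genes of heme degradation and carriage, 3 rose and 0 fell in rd6, with a median log2 fold change of 0.19. Over all genes tested, 11.4% were higher and 11.6% lower. Blvra, for biliverdin reductase, which acts on the product of heme oxygenase, ranged from 239 to 316 normalized counts in WT and from 332 to 473 in rd6, without overlap (log2 fold change 0.52, SE 0.10, limma q = 0.00221). Slc40a1, the iron exporter ferroportin, ranged from 40 to 71 in WT and from 113 to 151 in rd6, again without overlap (log2 fold change 1.22, SE 0.14, limma q = 4.63e-05). Ferroportin is likewise known from macrophages. The constitutive heme oxygenase, Hmox2, ranged from 1067 to 1311 in WT and from 1281 to 1548 in rd6. It rose by less (log2 fold change 0.21, limma q = 0.0256), only rd6 replicate 1 reached into the WT range, and without WT replicate 2 or rd6 replicate 6 its q was 0.059 and 0.0542. The other 3, Blvrb (limma q = 0.386), the heme transporter Slc48a1 (0.0637) and the heme-binding Hpx (0.416), did not pass. Slc48a1 was lower without WT replicate 4 (log2 fold change -0.34, limma q = 0.00526), without the 3 libraries high in Krt5 (limma q = 0.0121), with limma-trend on CPM (0.0445) and in DESeq2 (0.0307).

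**Figure D3:**
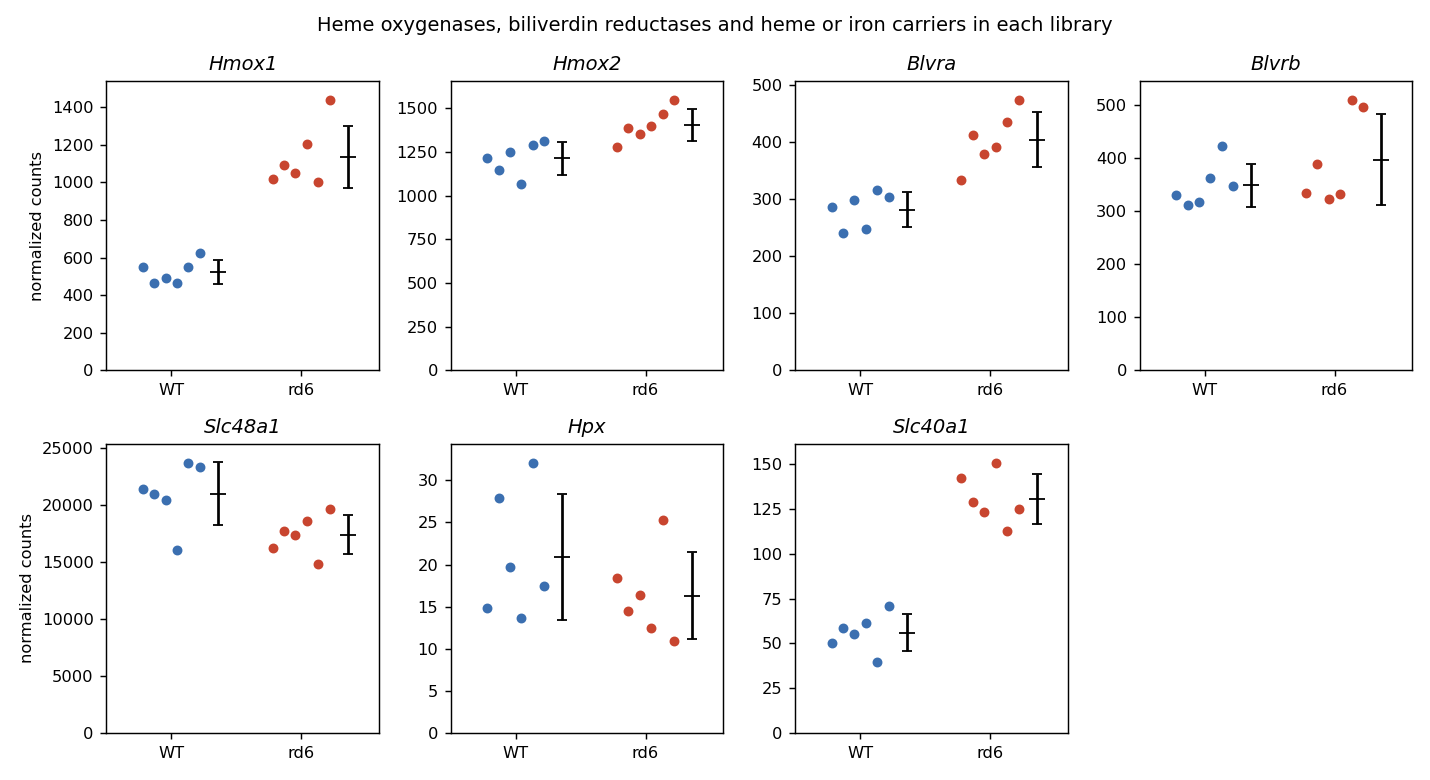
Normalized counts of Hmox1 and 6 other genes of heme degradation and carriage in each WT (blue) and rd6 (red) library, replicates 1 to 6 from left to right, with mean and SD in black. The groups are apart for Hmox1, Blvra and Slc40a1, and Hmox2 overlaps through rd6 replicate 1 alone.

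Nqo1 was the one gene of the 10 that fell. It encodes a quinone reductase that spends NADH or NADPH to reduce quinones fully, and it lies on chromosome 8 from 107388225 to 107403206 on the - strand (ENSMUSG00000003849, no annotated overlap). It ranged from 5948 to 8025 normalized counts in WT with a median of 7669, and from 5441 to 7076 in rd6 with a median of 5760. WT replicate 4 lay far below the other WT libraries and within the rd6 range, and rd6 replicates 4 and 6 were the highest of their group. The WT level was 1.23-fold higher (log2 fold change -0.30, SE 0.085, limma q = 0.0223). Without WT replicate 1 the value was -0.28 and the call was lost (limma q = 0.0506). The sum of the RPE markers was also lowest in WT replicate 4 (1518560) among the WT libraries, and among the rd6 libraries it was lowest in replicate 5 (1434760) and highest in replicate 6 (1920520), as was Nqo1 itself. Most of this sum was Ttr and Rgr. Rgr was lower in rd6 (log2 fold change -0.88, limma q = 0.00113), and Ttr was not called (limma q = 0.302). The part of the RPE content of the libraries in the difference of Nqo1 was not tested.

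Gclc and Gclm encode the catalytic and the modifier subunit of glutamate-cysteine ligase, the first and rate-limiting step of glutathione synthesis, and they differed in their response. Gclc lies on chromosome 9 from 77754535 to 77794485 on the + strand (ENSMUSG00000032350), with no annotated overlap. It ranged from 1685 to 1975 normalized counts in WT with a median of 1813, and from 1983 to 2539 in rd6 with a median of 2285. The groups did not overlap, though WT replicate 1 and rd6 replicate 5 were almost equal. The fold change was 1.24 (95% interval 1.13 to 1.36, log2 fold change 0.31, SE 0.061, limma q = 0.00276), and over 24 alternatives the log2 value stayed between 0.28 and 0.36.

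Gclm lies on chromosome 3 from 122245557 to 122270732 on the + strand (ENSMUSG00000028124), where 2 other noncoding genes overlap it, 1 of them on the same strand. It ranged from 2903 to 3488 normalized counts in WT and from 2698 to 3441 in rd6. The groups lay over each other, with a fold change of 0.964 (95% interval 0.878 to 1.06, limma q = 0.58). The ratio of Gclm to Gclc counts, which needs no scaling between libraries, was 1.7503 ± 0.105 in WT and 1.36 ± 0.0635 in rd6 (SD, n = 6 each). It ran from 1.62 to 1.87 in WT and from 1.28 to 1.48 in rd6, so every rd6 library had a lower ratio than any WT library. The log2 difference was -0.36 (exact permutation test, two-sided p = 0.002165, the smallest that 6 against 6 libraries allow, adjusted p = 0.004329). Of the 2 subunits it is Gclm whose promoter window was in the RefSeq table, and it is shown for its antioxidant response element core, in capitals (GRCm38.p6, chr3:122245307-122245606, + strand).
Gclm: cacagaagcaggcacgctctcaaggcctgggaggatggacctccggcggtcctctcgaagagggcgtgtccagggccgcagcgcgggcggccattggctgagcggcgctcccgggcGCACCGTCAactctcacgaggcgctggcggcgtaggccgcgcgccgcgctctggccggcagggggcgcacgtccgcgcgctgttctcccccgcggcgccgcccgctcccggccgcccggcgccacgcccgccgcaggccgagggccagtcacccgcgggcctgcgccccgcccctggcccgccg
The core is found here once, on the opposite strand. It occurs in 12.4% of the 32851 windows, and among the windows of 8 of the 10 genes that could be matched it was also in those of Mt2 and Srxn1 and in 1 of 3 windows of Txnrd1. The windows of Mt1, Nqo1, Gpx3 and Gstm1 did not hold these letters. Sites more than 250 bases before the annotated start were not searched, so no element is called absent from a gene.

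Around these 2 subunits, 14 genes of glutathione synthesis and recycling were tested, of which 1 was higher and 1 was lower. Ggt5, a gamma-glutamyltransferase that cleaves glutathione conjugates, rose 2.02-fold from a low level (13.2 ± 5.04 normalized counts in WT, 27.2 ± 7.23 in rd6, SD, n = 6 each, limma q = 0.0128). The value depended on the scale, with a log2 fold change of 0.41 under limma-trend on CPM against 1.01, and Ggt5 is not tested where each library must reach 10 normalized counts, which leaves 0 higher. Chac2, which degrades glutathione in the cytosol, fell by 0.29 on the log2 scale (limma q = 0.0432), but q was 0.0549 to 0.0903 without any 1 of 8 libraries (WT replicates 1, 2, 3, 5 and 6, rd6 replicates 1, 2 and 6). Its call was also lost with no filter (limma q = 0.0594), TMM rescaling (0.062), limma-trend on CPM (0.0651) and edgeR with upper-quartile normalization (0.0744). There were 2 higher without WT replicate 4, with Glrx (limma q = 0.0314), or without rd6 replicate 5, with Gsr (limma q = 0.0397). With limma-trend on CPM there were 3 higher, with Gsr (q = 0.00936) and Glrx5 (q = 0.0117). With upper-quartile normalization in edgeR there were 2, with Gsr (q = 0.0479).

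Srxn1 and Txnrd1 serve the thiol enzymes, the first by restoring overoxidized peroxiredoxins and the second by reducing thioredoxin with NADPH. Srxn1 (ENSMUSG00000032802, chromosome 2, 152105516 to 152111376, + strand) ranged from 888 to 1027 normalized counts in WT and from 906 to 1154 in rd6. Only rd6 replicates 5 and 6 exceeded the WT range, and the fold change was 1.04 (95% interval 0.939 to 1.16, limma q = 0.577). Txnrd1 (ENSMUSG00000020250, chromosome 10, 82833951 to 82897712, + strand) ranged from 2506 to 2983 in WT and from 2239 to 2717 in rd6. Its rd6 libraries tended to the low side, yet 3 of them lay within the WT range, and the fold change was 0.917 (95% interval 0.839 to 1.00, limma q = 0.15). The annotation places 3 other genes over Txnrd1, among them Eid3 on the same strand, so that its reads are in part uncertain. Of 18 other genes of thioredoxins, peroxiredoxins and their partners, 2 were higher and 1 was lower. Without WT replicate 5 there were 4 higher, with the methionine sulfoxide reductase genes Msrb1 (limma q = 0.045) and Msrb2 (0.0442), and 4 also without the 3 libraries high in Krt5. Without rd6 replicate 1 there were 2 lower, with Sesn1 (limma q = 0.0311), which was also lower in edgeR with TMM (q = 0.0464) and DESeq2 (q = 0.0475). With limma-trend on CPM there were 5 higher, with Msra (q = 0.033), Msrb1 (q = 0.0251) and Msrb2 (q = 0.00402). Prdx4, the peroxiredoxin of the endoplasmic reticulum, rose by a log2 value of 0.58 (limma q = 0.0203) and Prdx3, that of mitochondria, by 0.25 (limma q = 0.0118). Sesn3, a stress-inducible sestrin, fell by 0.50 on the log2 scale (limma q = 0.00934) from 22650 ± 3339 to 16096 ± 2522 normalized counts (SD, n = 6 each).

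Gpx3, the secreted glutathione peroxidase, was the most variable of the 10 genes (ENSMUSG00000018339, chromosome 11, 54902453 to 54910377, + strand). It ranged from 553 to 19902 normalized counts in WT with a median of 2001, and from 1481 to 12091 in rd6 with a median of 2761. Its coefficient of variation was 149% in WT and 90.5% in rd6, where that of Gclc was 5.85% and 8.25%. WT replicate 4 and rd6 replicates 1 and 5 stood above all other libraries, and the groups overlapped over nearly their whole range. The log2 fold change was 0.53 with an SE of 0.80 (limma q = 0.671), and it ranged from 0.10 without WT replicate 1 to 1.14 without WT replicate 4. On the recovered reads, edgeR with TMM or RLE and DESeq2 gave values just below 0 and edgeR with upper-quartile normalization gave 0.014, so no direction is given. The same WT replicate 4 and rd6 replicates 1 and 5 were also the highest in the ocular surface keratins Krt5, Krt12, Krt14 and Krt15. Their sum was 167663 in WT replicate 4, 47145 in rd6 replicate 1 and 81344 in rd6 replicate 5, and from 4.15 to 13294 in the other 9 libraries, with Krt5 and Krt14 at 0 in WT replicate 3. In those 9, taken from the lowest sum to the highest, Gpx3 was 1238 in WT replicate 3, 553 in WT replicate 1, 1238 in WT replicate 5, 1557 in rd6 replicate 4, 2900 in rd6 replicate 6, 2623 in rd6 replicate 3, 4275 in WT replicate 6, 2764 in WT replicate 2 and 1481 in rd6 replicate 2. Gpx3 was thus mostly higher where the keratins were higher, with rd6 replicate 2 the clearest exception. Without these 3 libraries the log2 fold change of Gpx3 was 0.37 (limma q = 0.637), and the calls of the other 9 genes were as before. Aqp4, Dkk3 and Abca8a of the Mueller glia list and Itgam of the macrophage list also had their highest values in the same 3 libraries. For the other markers of those lists the 3 highest libraries were not these 3. The part of ocular surface tissue, or of these other cell types, in the level of Gpx3 was not tested.

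**Figure D4:**
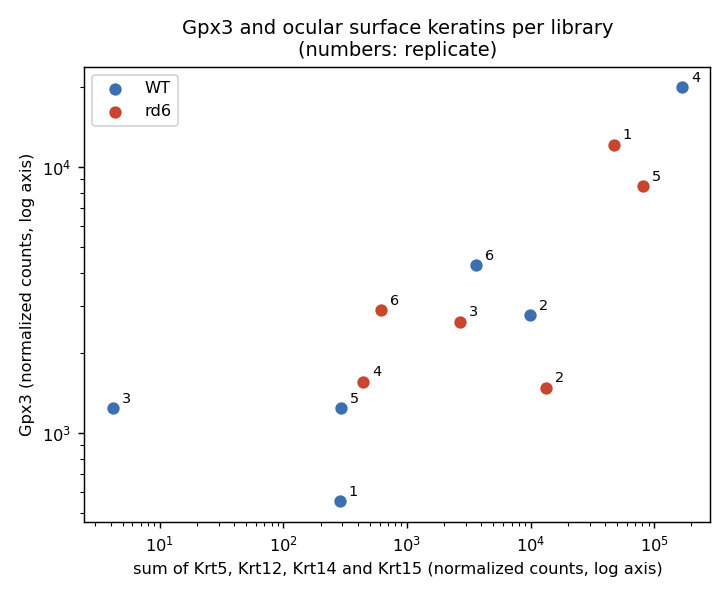
Gpx3 (y axis) against the sum of 4 ocular surface keratins (x axis) in each library, both in normalized counts on log axes, with WT in blue, rd6 in red and the replicate number beside each point. WT replicate 4 and rd6 replicates 1 and 5 have the highest values on both axes.

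Gstm1, a cytosolic glutathione S-transferase of the mu class, did not differ beyond its spread (ENSMUSG00000058135, chromosome 3, 108012255 to 108017973, - strand). It ranged from 563 to 1130 normalized counts in WT and from 496 to 1000 in rd6, with WT replicate 4 the highest. The fold change was 0.940 (95% interval 0.700 to 1.26, limma q = 0.779), and its sign turned without WT replicate 4 or rd6 replicate 4. The mu-class genes, like those of the alpha class, are near copies of each other, so the division of reads between them is uncertain. Of 20 other glutathione S-transferases tested, 2 were higher and 2 were lower. Without WT replicate 4 there were 4 higher, with Gsta4 (limma q = 0.0283) and Mgst1 (0.0474), and without rd6 replicate 6 there were 4 lower, with Gstm6 (limma q = 0.0245) and Gstt1 (0.0389). Gsta3, an alpha-class enzyme, rose most (log2 fold change 2.02, SE 0.40, limma q = 0.00293), from a WT range of 328 to 2432 to an rd6 range of 2050 to 4506 that overlapped through WT replicate 4. The membrane-bound Mgst3 rose by a log2 value of 0.70 (limma q = 0.00237). Gstk1, of mitochondria and peroxisomes, fell by 0.93 (limma q = 0.000896), with rd6 replicate 6 at 374 normalized counts and the other rd6 libraries at 184 to 212. Gstm7, a further mu-class gene, fell by 0.72 on the log2 scale without overlap (limma q = 0.000214).

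Most regulators of this pathway did not pass the test. Nfe2l2 stood at 2391 ± 118 normalized counts in WT and 2285 ± 180 in rd6 (limma q = 0.421), and Keap1 at 1865 ± 91.1 and 1914 ± 94.1 (SD, n = 6 each, limma q = 0.613). Bach1 stood at 807 ± 78.2 in WT and 699 ± 67.1 in rd6, with a log2 fold change of -0.21 that did not pass (limma q = 0.0839). Of 9 regulators tested 0 were higher and 1 was lower, the small MAF gene Mafg, which fell by 0.41 on the log2 scale without overlap of the groups (SE 0.080, limma q = 0.00293). One end of Mafg overlaps Sirt7 on the same strand, and reads from the shared stretch are uncertain. These are transcript levels, whereas NRF2 and KEAP1 are controlled as proteins.

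Of 23 other NRF2 target genes tested, 2 were higher, 3 were lower and 18 did not pass, with a median log2 fold change of -0.04. These counts rested in part on single libraries. Without WT replicate 4 they were 4 higher, with Txn1 (limma q = 0.0069) and Gsta4 (0.0283), and 5 lower, with Me1 (0.00995) and Slc48a1 (0.00526), and they were also 4 and 5 without the 3 libraries high in Krt5. Without rd6 replicate 6 there were 5 lower, with Me1 (limma q = 0.0433) and Osgin1 (0.02). Beside Gsta3, the carbonyl reductase gene Cbr3 rose by 0.39 (limma q = 0.0153). The epoxide hydrolase gene Ephx1 fell by 0.61 (limma q = 0.000561) and Taldo1, for transaldolase of the pentose phosphate pathway, by 0.51 (limma q = 0.00156). The exporter Abcc4 fell by 0.48 (limma q = 0.00032), with no overlap between the groups. The cystine transporter Slc7a11, which feeds glutathione synthesis, had 22 to 808 normalized counts in WT and 51 to 442 in rd6 (limma q = 0.734).

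In the enzymes around them the picture was likewise mixed. Of 4 other glutathione peroxidases, 1 was higher, the cytosolic Gpx1 (log2 fold change 0.39, limma q = 0.00648). Of 5 genes, the superoxide dismutases, the copper chaperone Ccs and catalase, 1 was lower, the mitochondrial Sod2. It fell by 0.21 (limma q = 0.0269), with q = 0.0529 to 0.0592 without any 1 of 5 libraries (WT replicates 1, 2 and 6, rd6 replicates 1 and 6). Its q was 0.0684 with upper-quartile normalization in edgeR. Without WT replicate 4, the extracellular Sod3 was higher (limma q = 0.0327). Of 13 genes of NADPH supply, 1 was higher and 2 were lower. The mitochondrial Idh2 rose by 0.39 (limma q = 0.000354), whereas Taldo1 and the NAD kinase gene Nadk, which fell by 0.44 (limma q = 0.00151), were lower. Without WT replicate 1 there were 2 higher, with Idh1 (limma q = 0.0395). The proton-driven transhydrogenase gene Nnt, known to be mutated in C57BL/6J, was below the limit on low values in both genotypes, at 2.06 to 14.9 normalized counts. The annotation holds a further protein-coding entry named Nnt over the same stretch and strand, so the division of reads between the entries is uncertain.

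**Figure D5:**
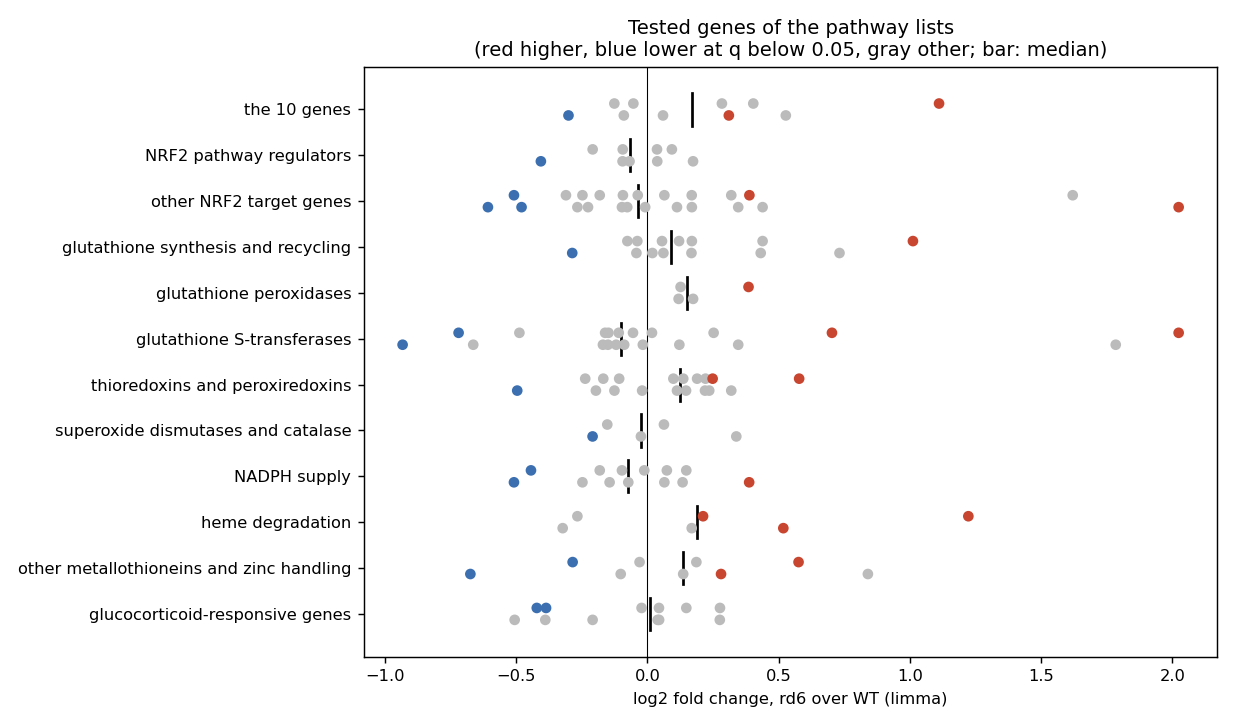
Log2 fold change of rd6 over WT (x axis, limma) for each tested gene of the 10 and of 11 pathway lists (rows), red where higher and blue where lower at q below 0.05, gray otherwise. Black bars are medians. Called genes lie on both sides of 0 in most lists, with 13 higher and 14 lower of the 120 distinct pathway genes tested.

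Across the 11 lists, 120 distinct genes were tested apart from the 10, of which 13 were higher, 14 were lower and 93 did not pass. Their median log2 fold change of 0.0048 was near that of all genes, and the counts were near the shares of all genes given above. With limma-trend on CPM 22 of them were higher.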

How the data were processed

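The study's authors sequenced stranded total-RNA libraries as read pairs. Rsubread, with standard parameters, gave the alignment to mm10 and the counts per gene. Versions, and the use of strand in counting, are not given in the sources used here, so genes that overlap others are uncertain. The submitters' processing notes also name bcl2fastq, FastQC and DESeq2. The values the authors deposited are a signal, namely counts per gene after division by a size factor from DESeq2 (normalized counts), and the mean of that signal. Columns of the authors' own comparison (log2 fold change and standard error, a score called the Wald statistic, p-values) were deposited too and were not used.

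The table has 28596 entries, of which 5 repeats were dropped. All values were whole multiples of the value of 1 read (within 0.001 of a whole number), so reads were recovered, and all 66 pairs of libraries differed beyond counting noise (chi-square per gene at least 9.45). The value of 1 read differed by at most 1.23 times between libraries. Floors in reads cover counting error only. The main test was limma 3.58.1 (R 4.3.3, lmFit, eBayes with trend) on log2(value + 1) for the 17768 genes whose mean reached 10, with genotype as the term, Benjamini-Hochberg adjustment (q) over all of them and calls at q below 0.05. Fold changes on this scale understate those of low genes. The code was tested on simulated data. The ratios were tested with exact permutation tests.

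Alternatives changed the pseudocount to 0.1 or 10 and the filter to none or to 10 in each library, or used TMM rescaling, limma-trend on CPM, the replicate number as a block, edgeR 4.0.16 (TMM, RLE, upper quartile) and DESeq2 1.42.0 on recovered reads, and leaving out each library. Leaving out the 3 libraries with over 10000 normalized counts of Krt5 was added after seeing the data.

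The members and lists were chosen with earlier results of these data known. Named are the 10 genes, Mfrp, Nfe2l2, Keap1, Bach1, Mtf1, Nnt and, from each list, up to 2 called genes with the largest rise and 2 with the largest fall. Hmox2, Abcc4, Slc7a11, Blvrb, Slc48a1, Hpx, Krt5 and other keratins, Csf1r and Best1 were chosen for the text once their values had been seen. So were Aqp4, Dkk3, Abca8a, Itgam, Ttr, Rgr and the genes named as entering a list's calls under an alternative. Of the list entries, Gpx5, Gpx6, Mt4 and a misspelled entry matched no gene, and Ugt1a6a, Gpx2, Gstm3, Mgst2, Nnt, Slc30a2 and Slc30a10 were not tested as too low. Coordinates are from GENCODE M21 (GRCm38), promoter windows from RefSeq (GRCm38.p6).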

Additional observations from a re-analysis of the deposited data

Results flagged for a closer look

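In 9 of 94 groups of 6 libraries examined, 1 library stood apart. Its gap to the next library, as a share of the range of the group, was above Dixon's 95% critical value. Examined in each genotype were the genes named by rule, Hmox2, Abcc4, Slc7a11, Krt5 and the ratios of Mt2 to Mt1 and of Gclm to Gclc. Other genes named in the text, such as the other keratins and Csf1r, were not examined. Chance alone gives about 1 in 20 groups if they are normally distributed and independent. These groups share the same 12 libraries, and some genes were named after their values were seen. The 9 are therefore not set against that rate. In these 9 groups the library was rd6 replicate 6 or WT replicate 4 each time, and no cause was tested. Of the genes not examined, Krt12 in rd6 was far highest in replicate 1, at 5990 normalized counts with the next at 1216. In rd6 replicate 6, Mt1 stood at 75815 normalized counts with the next rd6 library at 51901, and Mt2 at 35399 with the next at 26052. Ephx1 stood at 6715 there with the next at 4928, Gstk1 at 374 with the next at 212, and Abcc4 at 2889 with the next at 2318. In WT replicate 4, Gpx3 stood at 19902 with the next WT library at 4275, Gsta3 at 2432 with the next at 903, Slc7a11 at 808 with the next at 231, and Krt5 at 63798 with the next at 4496.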

How the results depend on the processing

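Hmox1 and Gclc kept their direction and call under all 24 alternatives (limma, edgeR or DESeq2 q of 6.1e-22 to 0.000256 and of 4.52e-05 to 0.0119). Mt1 was called with limma-trend on CPM alone (log2 fold change 0.46, q = 0.0416). Nqo1 lost its call without WT replicate 1 (q = 0.0506), which left 0 of the 10 genes lower, and leaving out single libraries gave -0.36 to -0.27. Gpx3 changed sign in edgeR with TMM (-0.032) and RLE (-0.044) and in DESeq2 (-0.042), and Gstm1 without WT replicate 4 (0.028) or rd6 replicate 4 (0.012), from -0.19 to 0.028 over single libraries left out. Slc7a11 changed sign in edgeR with TMM (-0.16), RLE (-0.17) and upper quartile (-0.11), in DESeq2 (-0.16) and without WT replicate 1 (log2 -0.028, up to 1.00 without WT replicate 4). Krt5 did so in the same 4 count fits (-0.16, -0.18, -0.098 and -0.17), and Mtf1 with CPM (0.021), with upper quartile (0.0086) and without WT replicate 3 (0.0017, down to -0.053 without rd6 replicate 1). With CPM, 22 pathway genes were higher instead of 13, and 542 and 180 of all genes were higher and lower by at least the study's fold limit instead of 833 and 376. The ratio of Mt2 to Mt1 passed without WT replicate 2 (-0.15, adjusted exact permutation p = 0.026) or rd6 replicate 1 (-0.14, 0.0195), and ranged to -0.084 without WT replicate 6. The cause was not tested. Of 814 results of other genes under alternatives, 768 kept their side, 34 lost a call and 12 changed sign. Depth did not limit the 10 genes, whose lowest value was 462 normalized counts.

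Same-numbered WT and rd6 libraries did not deviate together (mean correlation across genes of -0.245, from -0.743 to 0.315, 0 of 6 best with their own number), so the numbers do not pair them. With the replicate number as a block, Nqo1 had a log2 fold change of -0.30 and limma q = 0.0702, 0 of the 10 genes and 9 instead of 14 pathway genes were lower, and Cbr3, Ggt5, Chac2, Prdx4, Sod2, Slc30a5, Klf9 and Sgk1 also lost their calls. The blocked exact permutation test of the ratio of Gclm to Gclc could not pass, since 6 pairs allow no adjusted p below 0.0625, the value it gave (log2 difference -0.36).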
